A study of Homo sapiens with 4 samples.

Results

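The cancer-testis antigen families were described here in DLD-1 cells by label, a human colorectal adenocarcinoma line, with and without creatine. The members were the 71 gene symbols, of 34545 in the deposited count table, whose names mark them as MAGE-A to MAGE-F, MAGE-H, MAGE-L, GAGE, PAGE, XAGE, SSX, CTAG or PRAME genes. They were picked by name, with no threshold on level or change, and 2 of them, MAGEA13P and MAGEA7P, are annotated as pseudogenes. RNA was sequenced from 2 libraries labelled Creatine and 2 labelled Ctrl, all of WT genotype and with CRC cells as the stated cell type. The study addressed the role of creatine, a store of high-energy phosphate, in ferroptosis of colorectal cancer. Dose and duration are not in the labels. Nor do the labels say whether replicates were grown apart, and the p-values below therefore reflect library-to-library spread that may be purely technical.

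Cancer-testis genes are named for their pattern in the body, being active in germ cells of the testis and silent in most other adult tissues, and for their return in tumours, where peptides from their proteins can be recognised by T cells. Most sit on the X chromosome in clusters of recent duplicates, and their silence in body tissues is known to depend on DNA methylation of their promoters. The MAGE proteins share a domain through which many of them bind ubiquitin ligases. The MAGE-D, MAGE-E, MAGE-F, MAGE-H and MAGE-L branches belong to the same protein family but are expressed in many normal tissues, so they are members by name without being restricted to the testis.

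Total counts were 51073738 and 48249693 in the Creatine libraries and 59860043 and 49207427 in the Ctrl libraries. Levels are given as TPM, a length-scaled share of each library computed from the deposited counts and gene lengths, so that genes can be compared. CPM, also used, are the counts scaled to library size and a between-library (TMM) factor, without length. A gene was called expressed when it had more than 3 counts in each of the 4 libraries, the most that remains possible where none was counted. Among counts of 1 to 20, between 71.3% and 73.7% were even numbers in the 4 libraries, against 49.0% to 51.5% of counts over 1000, so low counts often came in steps of 2 and their error is wider than a count of single reads gives; the cause was not tested. The labelled cell type was not borne out by its defining markers, since EPCAM, CDX2, VIL1, KRT20 and LGALS4 of colon epithelium had at most 8 counts in any library, while GUCY2C, KRT8 and KRT18 and all 7 mesenchymal markers were over 1 TPM in every library. The same level was reached by 3 of 6 melanocytic markers (MITF, PMEL and DCT, with TYR at 0 counts), 2 of 5 fibroblast, 1 of 4 immune (CD68), 0 of 5 trophoblast and 0 of 3 endothelial markers. The libraries are called by their labels throughout. Of 8 germ cell markers, 0 were over 1 TPM in every library, and the sperm proteins PRM1 and TNP1 had 0 counts in all 4. The 8 germ cell markers summed to 1.72 and 0.874 TPM in the Creatine libraries and 1.51 and 0.989 TPM in the Ctrl libraries.

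The clearest contrast between neighbouring members was in a cluster of MAGE-B genes on the X chromosome, and its promoters are shown first because the difference in level ran beside a difference in sequence. MAGEB2 (chromosome X, 30215560 to 30220089, plus strand, GRCh38) was at 305 and 312 TPM in the Creatine libraries and at 342 and 316 TPM in the Ctrl libraries. MAGEB3, MAGEB4 and MAGEB1, whose starts lie 14.9, 26.5 and 28.2 kb further along the same strand, had 0 counts in all 4 libraries, each a level below the floor of 3 counts per library. The longest transcript of each of these 4 genes shares no stretch of 100 bases with another annotated gene. MAGEB4 (to 30244193) and MAGEB1 (from 30243730) overlap on the same strand, and how reads from the overlap were counted is not given. The distal promoter of MAGEB1 printed below lies inside MAGEB4. The 250 bases before each RefSeq start are given 5′ to 3′ (GRCh38.p14, plus strand) with CG dinucleotides in capitals, the sites at which methylation can occur. RefSeq starts can differ from the starts above, and that of MAGEB3 lies inside the gene, which begins at 30230436. The first sequence belongs to MAGEB2 (chrX:30215313-30215562), and the others to MAGEB3 (chrX:30230407-30230656), MAGEB4 (chrX:30241750-30241999) and MAGEB1, which has a distal start (chrX:30243481-30243730) and a proximal start (chrX:30246896-30247145).
MAGEB2: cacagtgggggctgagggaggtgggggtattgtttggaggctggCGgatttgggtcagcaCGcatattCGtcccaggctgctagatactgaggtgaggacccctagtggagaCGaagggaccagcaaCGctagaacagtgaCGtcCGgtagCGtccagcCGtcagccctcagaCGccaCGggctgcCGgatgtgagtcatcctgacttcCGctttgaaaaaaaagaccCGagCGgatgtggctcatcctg
MAGEB3: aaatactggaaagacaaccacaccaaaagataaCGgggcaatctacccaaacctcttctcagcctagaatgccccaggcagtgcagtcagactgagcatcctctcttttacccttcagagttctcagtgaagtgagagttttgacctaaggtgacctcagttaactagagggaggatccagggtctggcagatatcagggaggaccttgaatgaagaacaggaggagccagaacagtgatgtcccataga
MAGEB4: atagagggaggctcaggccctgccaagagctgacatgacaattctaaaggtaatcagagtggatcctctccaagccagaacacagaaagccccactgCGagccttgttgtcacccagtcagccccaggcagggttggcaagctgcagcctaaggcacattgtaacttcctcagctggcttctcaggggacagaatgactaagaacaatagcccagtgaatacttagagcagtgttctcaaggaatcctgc
MAGEB1 distal: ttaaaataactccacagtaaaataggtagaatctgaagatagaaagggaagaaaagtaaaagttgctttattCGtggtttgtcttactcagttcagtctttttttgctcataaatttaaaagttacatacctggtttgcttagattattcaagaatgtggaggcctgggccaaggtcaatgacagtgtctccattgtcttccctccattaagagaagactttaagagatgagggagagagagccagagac
MAGEB1 proximal: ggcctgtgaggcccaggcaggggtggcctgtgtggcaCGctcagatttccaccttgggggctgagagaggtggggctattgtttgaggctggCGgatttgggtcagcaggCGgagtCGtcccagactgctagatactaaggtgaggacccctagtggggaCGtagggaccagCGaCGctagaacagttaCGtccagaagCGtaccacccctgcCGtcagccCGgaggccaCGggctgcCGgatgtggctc

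MAGEB2 held 15 CG dinucleotides in these 250 bases, against 1 each before MAGEB3, MAGEB4 and the distal start of MAGEB1, and 13 before its proximal start. MAGEB1 thus had 0 counts with a promoter nearly as rich in CG as that of MAGEB2. A further pair of promoters is shown because they run against the MAGE-B pattern, SSX1 (chrX:48255142-48255391, plus strand) as an abundant gene with few CG and PRAME (chr22:22559266-22559515, minus strand, the first of its 3 windows) as a silent gene with more.
SSX1: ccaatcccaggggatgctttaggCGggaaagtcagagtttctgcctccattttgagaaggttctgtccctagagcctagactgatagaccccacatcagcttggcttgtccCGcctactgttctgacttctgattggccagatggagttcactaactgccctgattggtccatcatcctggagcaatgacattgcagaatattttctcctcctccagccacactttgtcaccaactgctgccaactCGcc
PRAME: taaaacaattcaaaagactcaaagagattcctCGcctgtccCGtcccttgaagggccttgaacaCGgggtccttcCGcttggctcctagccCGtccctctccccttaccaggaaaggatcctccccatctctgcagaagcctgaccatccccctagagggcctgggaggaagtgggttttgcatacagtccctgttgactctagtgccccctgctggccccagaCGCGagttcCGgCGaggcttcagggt

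SSX1 was at 178 and 167 TPM in the Creatine libraries and 189 and 191 TPM in the Ctrl libraries with 3 CG in the 250 bases, while PRAME had 0 counts in all 4 libraries with 9. Of the 71 members, 61 matched the RefSeq table of promoters, with 82 windows of 300 bases (250 before to 50 after the start). Those not matched were CTAG1A, CTAG1B, CTAG2, MAGEA1, MAGEA10, MAGEA13P, MAGEA7P, MAGEB17, MAGEH1 and SSX3. The 18 windows of the 14 matched members with a mean of at least 10 TPM held a median of 13 CG (5 to 21). Silent members, with no more than 3 counts in any library, also held a median of 13 (1 to 18), in 33 windows of 26 genes. Those of them that shared under 5% of their sequence with other genes held a median of 7.5 (1 to 18), in 14 windows of 10 genes. Over all 35116 windows of the table the median was 14, so none of these groups of members was richer in CG than promoters at large. The motif CGGAAG, of the kind bound by ETS factors, was found on either strand in 5 of the 18 windows and 3 of the 14 windows, against 19.5% of all windows. It contains a CG of its own. The motif GGGCGG, of the kind bound by Sp1, also with a CG, was found on either strand in 8 of the 18 and 5 of the 14 windows, against 15786 of all 35116 windows. The 18 windows include those of MAGED1, MAGED2 and MAGEF1, of branches not restricted to the testis. Without these branches, 2 of 13 windows held CGGAAG and 4 held GGGCGG. Of the 33 windows of all silent members, 3 held CGGAAG and 6 held GGGCGG. These matches describe letters, not binding.

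**Figure D1:**
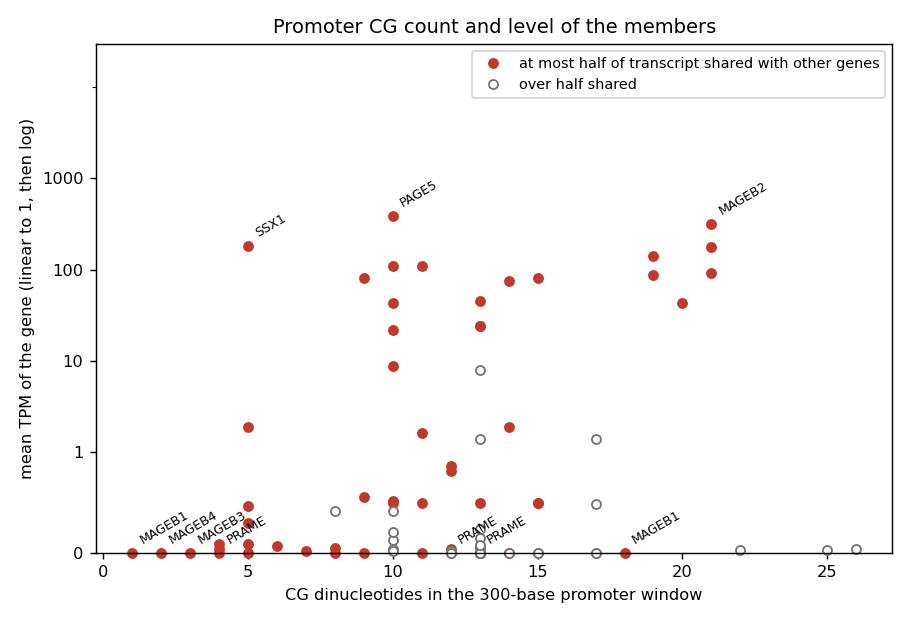
Number of CG dinucleotides in each 300-base promoter window (x axis) against the mean TPM over the 4 libraries of its gene (y axis, linear to 1 and logarithmic above), for 82 windows of 61 members; open circles mark genes with more than 50% of their transcript shared with other genes. Silent members lie along the bottom from 1 CG upwards, SSX1 stands high at 5 CG, and MAGEB2 stands high at 21.

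Expression of the families differed widely between members. Of the 71 members, 32 were expressed in all 4 libraries, 20 had some counts without reaching that level in every library (at most 16 counts in a library), and 19 had 0 counts in all 4. A mean of at least 10 TPM was reached by 19 members and of at least 100 TPM by 8. The lowest of the 19, MAGEH1 at 13.3 TPM, ranked 8184 of all 34545 symbols. The lowest of the 8, MAGED2 at 110 TPM, ranked 1805. At least 1 count was found for 52 of the 71 members and for 21954 of all symbols. The test below kept 31 members and 15302 of all symbols, so the share kept was near that of symbols at large. Members together made up 0.326% and 0.334% of the TPM total in the Creatine libraries and 0.323% and 0.347% in the Ctrl libraries. Where sequence is shared, a low count is no measure of the gene, because the treatment of reads that match several genes is not given in the sources used here. Of the longest transcript of each member, cut into overlapping stretches of 100 bases, more than 50% of the stretches occurred in another gene for 24 members and none for 35. Of the 19 members at 0 counts, 8 shared at least 95% of such stretches and 9 shared none.

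The CTAG genes encode the antigens known as NY-ESO and LAGE, used as targets of T cell therapy. CTAG2 (chromosome X, 154651972 to 154653579, minus strand) was the most abundant member and ranked 127 of all symbols by mean TPM, at 947 and 986 TPM in the Creatine libraries and at 863 and 1000.5 TPM in the Ctrl libraries. The Ctrl libraries enclosed both Creatine libraries. Its neighbours CTAG1A and CTAG1B were at 1.95 and 3.86 TPM on average, and 83.7% and 83.2% of their transcripts occur elsewhere, against 26.8% for CTAG2.

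Among the MAGE-A genes, 8 of 14 were expressed. MAGEA1, the gene from which the first human tumour antigen recognised by T cells was cloned, was at 403 and 417 TPM in the Creatine libraries and 417 and 437 TPM in the Ctrl libraries. Both Creatine libraries of MAGEA1 lay below both Ctrl libraries in TPM, the nearest 2 by a narrow margin, while in CPM the groups overlapped, at 166 and 174 CPM with creatine and 168 and 181 CPM in Ctrl. MAGEA6, whose protein binds the ligase TRIM28 and directs it to AMPK, was at 125 and 134 TPM in the Creatine libraries and 139 and 170 TPM in the Ctrl libraries. MAGEA3, which does the same, was at 90.04 and 82.8 TPM in the Creatine libraries and 76.9 and 102 TPM in the Ctrl libraries. Both Creatine libraries were below both Ctrl libraries for MAGEA6 and between them for MAGEA3. These 2 genes share 36.1% of their sequence, so counts could move between them, and their summed level was 104 and 106 CPM in the Creatine libraries and 101 and 132 CPM in the Ctrl libraries. MAGEA11, a coregulator of the androgen receptor, was at 89.3 and 89.0 TPM in the Creatine libraries and 94.2 and 93.5 TPM in the Ctrl libraries. MAGEA12 averaged 80.05 TPM and is taken up below. MAGEA4 averaged 0.493 TPM and shares no such sequence. MAGEA2 and MAGEA2B, at 1.37 and 0.487 TPM, are 97.8% and 100% shared, and MAGEA9 and MAGEA9B, with at most 12 counts, are about 90% shared, so the level of these 4 is unknown.

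Of the MAGE-C genes, MAGEC1 was at 70.5 and 68.8 TPM in the Creatine libraries and at 83.7 and 77.4 TPM in the Ctrl libraries. MAGEC2, which binds TRIM28, was at 19.9 and 23.2 TPM with creatine and 20.2 and 23.0 TPM in Ctrl, and MAGEC3 averaged 0.465 TPM. Of the MAGE-B genes, MAGEB2, MAGEB17 and MAGEB6 were expressed. MAGEB17 (chromosome X, 16167481 to 16171464, plus strand) was at 57.5 and 49.8 TPM with creatine and 61.1 and 68.2 TPM in Ctrl, and it overlaps an antisense transcript on the opposite strand, from which its reads cannot be told apart without strand.

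The SSX genes encode nuclear repressors, of which SSX1 is a fusion partner in synovial sarcoma. SSX1 was given above, and SSX3 was at 59.1 and 60.2 TPM with creatine and 53.3 and 61.0 TPM in Ctrl. PAGE5 was at 415 and 405 TPM with creatine and 331 and 413 TPM in Ctrl, and PAGE1 was at 50.1 and 43.0 TPM with creatine and 38.7 and 48.1 TPM in Ctrl. For PAGE5, 1 Ctrl library was low and the other lay between the Creatine libraries in TPM. In CPM that other library, at 74.4, lay just above both Creatine libraries, at 73.9 and 73.4. GAGE1 averaged 23.7 TPM, and the 10 GAGE genes other than GAGE1 and GAGE2A had at most 2 counts in any library, of which GAGE10 shared 19.4% of its sequence and the other 9 at least 76.6%. XAGE2 averaged 8.78 TPM, while XAGE1A and XAGE1B, for which every 100-base stretch is shared with the other, had 0 counts.

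Of the branches that are not restricted to the testis, MAGEF1 (chromosome 3, 184710367 to 184712002), which works with the ligase subunit NSMCE1, was at 174 and 180 TPM with creatine and 183 and 177 TPM in Ctrl. MAGED2, an adaptor needed for renal salt transport, was at 99.7 and 104 TPM with creatine and at 120 and 117 TPM in Ctrl. MAGEH1 was at 11.3 and 12.4 TPM with creatine and 14.9 and 14.6 TPM in Ctrl. MAGEL2, of the Prader-Willi region on chromosome 15, had 0 counts and shares no sequence, as did PRAME, the receptor subunit of a CUL2 ligase that represses retinoic acid signalling.

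The other expressed members were low. GAGE2A was at 6.59 and 9.24 TPM with creatine and 8.34 and 7.33 TPM in Ctrl, and it overlaps GAGE1 on the same strand. XAGE3 had 21 and 6 counts with creatine and 9 and 15 counts in Ctrl. The groups overlapped for both genes. MAGEB6 had 26 and 34 counts with creatine and 56 and 42 counts in Ctrl, and MAGEE1 had 28 and 10 counts with creatine and 44 and 66 counts in Ctrl. For both of these the Creatine libraries lay below the Ctrl libraries. SSX2, whose sequence is shared in full with other SSX genes, had 10 and 6 counts in each group.

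**Figure D2:**
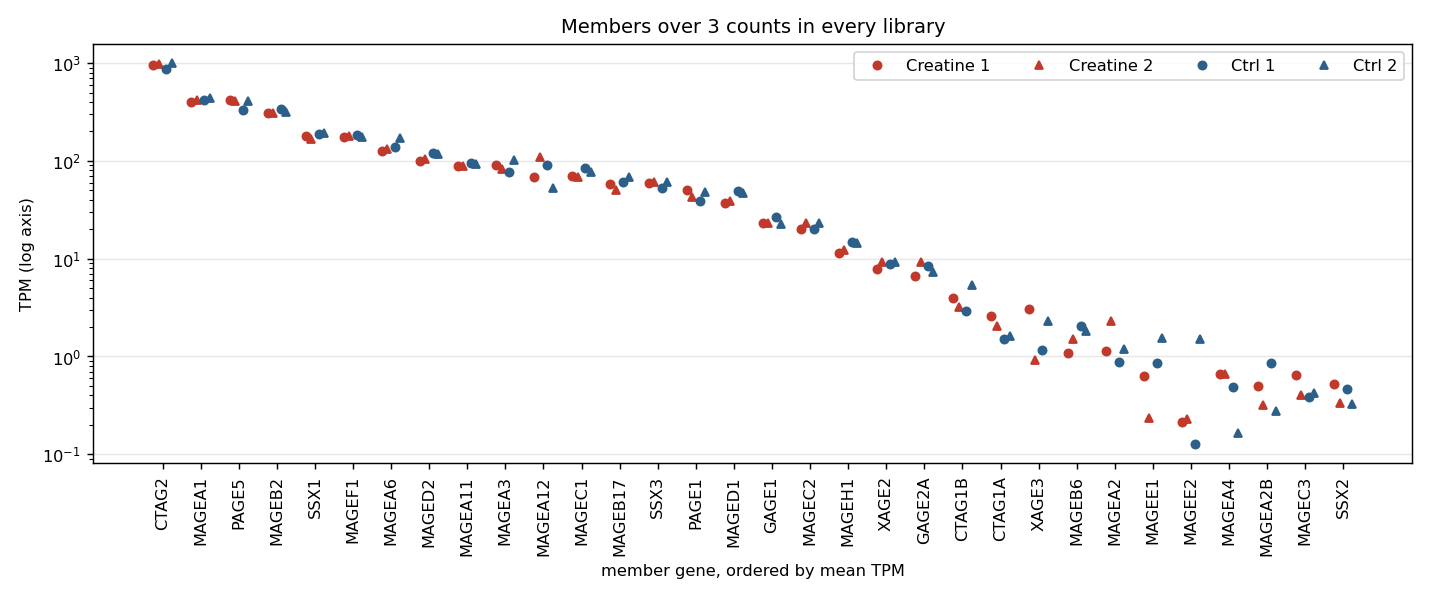
TPM (logarithmic y axis) of the 32 expressed members in each library, ordered by mean; red marks the 2 Creatine libraries and blue the 2 Ctrl libraries. The order runs from CTAG2 at 949 TPM to SSX2 at 0.413 TPM, and the 4 points of a gene lie close together above 10 TPM apart from MAGEA12.

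On the X chromosome, which holds 68 of the 71 members, some abundant genes lay a short distance from silent or low ones. Within 71.0 kb, MAGEA3, MAGEA12 and MAGEA6 stood at 87.9, 80.05 and 142 TPM on average, with the shared genes MAGEA2B and MAGEA2 between them. SSX1 at 181 TPM and SSX3 at 58.4 TPM start 69.1 and 160.2 kb from the start of SSX5, which shares 0.311% of its sequence and was at 0.552 TPM. PAGE5 at 391 TPM lay within 189.8 kb of PAGE2, with 0 counts, PAGE2B at 0.861 TPM and PAGE3 at 0.296 TPM, of which at most 16.0% was shared. Outside X, MAGEF1 was expressed and MAGEL2 and PRAME were not.

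**Figure D3:**
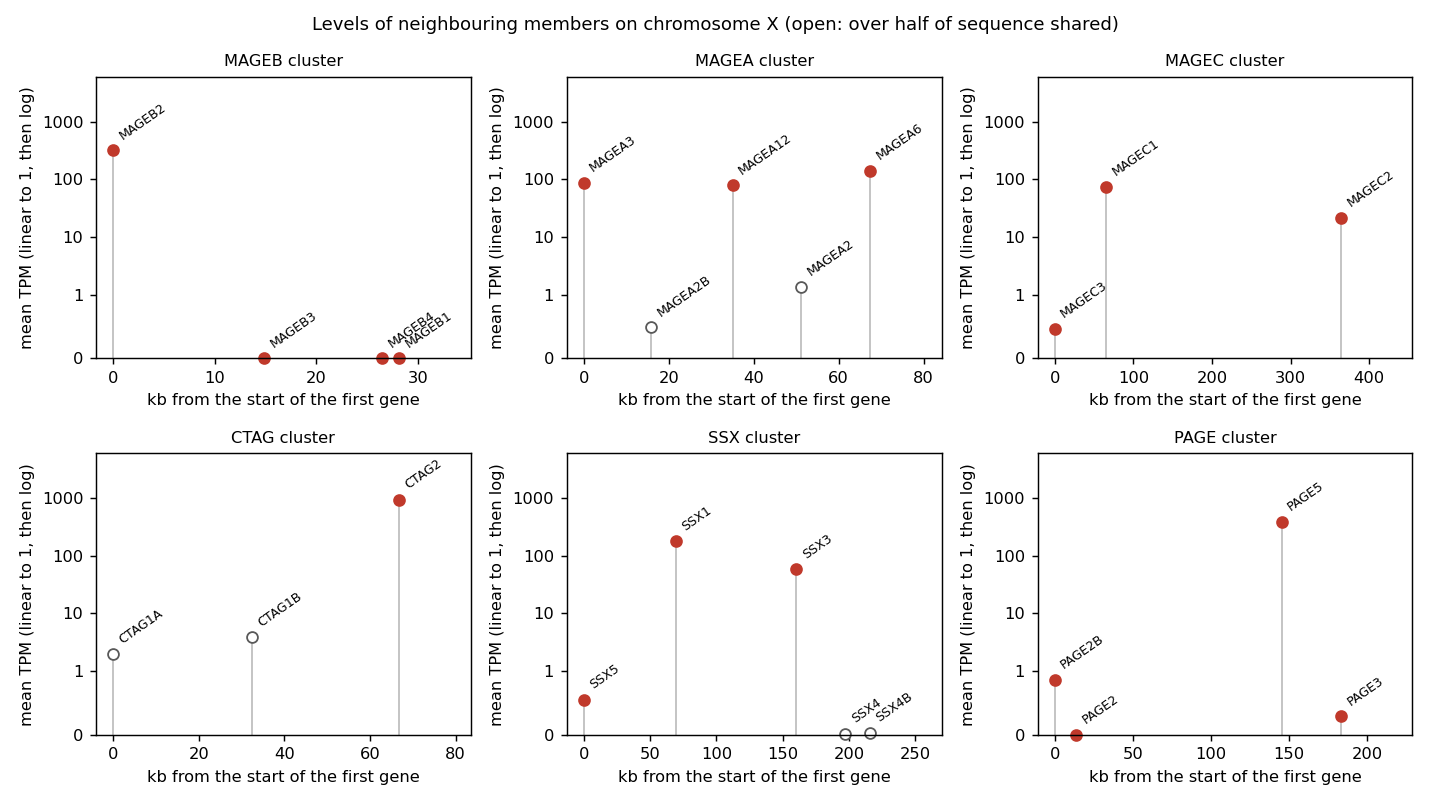
Mean TPM over the 4 libraries (y axis, linear to 1 and logarithmic above) of members in 6 clusters on chromosome X against the distance of their start from that of the first gene in the cluster (x axis, kb); open circles mark genes with more than 50% of their sequence shared. In the MAGE-B cluster MAGEB2 stands at 319 TPM beside 3 genes at 0.

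Few members passed the test of creatine against control. Of 31 members tested, 0 were higher and 1 was lower with creatine at an adjusted p under 0.05 (edgeR's quasi-likelihood test, Benjamini-Hochberg over 15302 genes), while 19.6% of all genes tested passed, 9.15% higher and 10.5% lower. The 40 members not tested had too few counts. Among members and genes of at least 1 CPM in 2 libraries, 1 of 21 members passed, against 26.4% of genes. A p that misses the threshold does not show that a gene did not change, and the intervals below say how large a change could be. The median log2 fold change (creatine over control) of the 31 was -0.05, against 0.01 for all genes, with 19 values below 0 and 12 above.

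The 1 member that passed was MAGED1 (chromosome X, 51803007 to 51902357, plus strand), an adaptor that binds the neurotrophin receptor p75 and takes part in cell death signalling. It fell to 37.0 and 39.0 TPM in the Creatine libraries, against 49.3 and 47.3 TPM in the Ctrl libraries, from 2740 to 4174 counts per library. Both Creatine libraries lay below both Ctrl libraries. In RNA from a whole culture, fewer cells with a transcript and less of it per cell cannot be told apart. The log2 fold change was -0.32 (SE 0.08, 95% interval -0.49 to -0.16, adjusted p = 0.0075, edgeR). It did not pass after a correction for transcript GC content and gene length (-0.22, adjusted p = 0.124), after one for GC content alone (-0.27, adjusted p = 0.0702), or without Creatine replicate 1 (-0.28, adjusted p = 0.116). The direction of change across all genes followed GC content, with 1217 of 5761 genes under 45% GC higher and 17 lower, against 29 of 4252 genes of at least 55% GC higher and 1189 lower. Transcripts of the 19 members of at least 10 TPM ranged from 41.0% GC (GAGE1) to 64.5% (CTAG2), with MAGED1 at 51.2%.

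Several abundant members, MAGED1 among them, had both Creatine libraries below both Ctrl libraries in CPM. This was so for 11 of the 31 tested, while 28.9% of all genes did so, whether or not they passed the test. Among the 19 members of at least 10 TPM it was so for 9, and the share of all genes at that level was not computed. The reverse held for 2 of the 31 (CTAG1A and MAGEA4, with at most 32 counts in a library), while 29.2% of all genes did so. Of those that did not pass, MAGED2 had a log2 fold change of -0.20 (95% interval -0.35 to -0.04, adjusted p = 0.073, edgeR), MAGEA6 of -0.24 (-0.44 to -0.04, adjusted p = 0.080), MAGEC1 of -0.19 (-0.35 to -0.03, adjusted p = 0.082) and MAGEB17 of -0.25 (-0.49 to -0.01, adjusted p = 0.133). After the correction for GC content and length these were -0.07, -0.24, -0.12 and -0.17 (adjusted p = 0.698, 0.150, 0.391 and 0.463).

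For the most abundant members the intervals were narrow. CTAG2 had a log2 fold change of 0.07 (95% interval -0.08 to 0.23, adjusted p = 0.564, edgeR). MAGEA1 was at -0.04 (-0.18 to 0.10, adjusted p = 0.767) and MAGEF1 at -0.00 (-0.17 to 0.16, adjusted p = 0.982). MAGEB2 was at -0.07 (-0.21 to 0.07) and PAGE5 at 0.16 (-0.04 to 0.35). The 19 members of at least 10 TPM lay between -0.32 and 0.34, with standard errors of 0.07 to 0.20. The 12 tested members below 10 TPM had standard errors of 0.40 to 0.98 and log2 fold changes from -1.45 (MAGEE1) to 1.03 (MAGEA4), and the smallest adjusted p among them was 0.106.

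After the correction for GC content and length, 0 of the 31 members were higher and 1 was lower, against 2.38% of all genes (1.24% higher and 1.14% lower). It was SSX1, a different gene from MAGED1, with a log2 fold change of -0.30 (adjusted p = 0.040, edgeR), against -0.12 (adjusted p = 0.338) before correction. With GC content alone as the correction the 1 member that passed was CTAG2, which was higher (0.32, adjusted p = 0.013), against 3.26% of all genes that passed and 1.52% that were higher. No member passed in all of these 3 fits, and CTAG2, SSX1 and MAGED1 each had 1 sign in all 3.

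**Figure D4:**
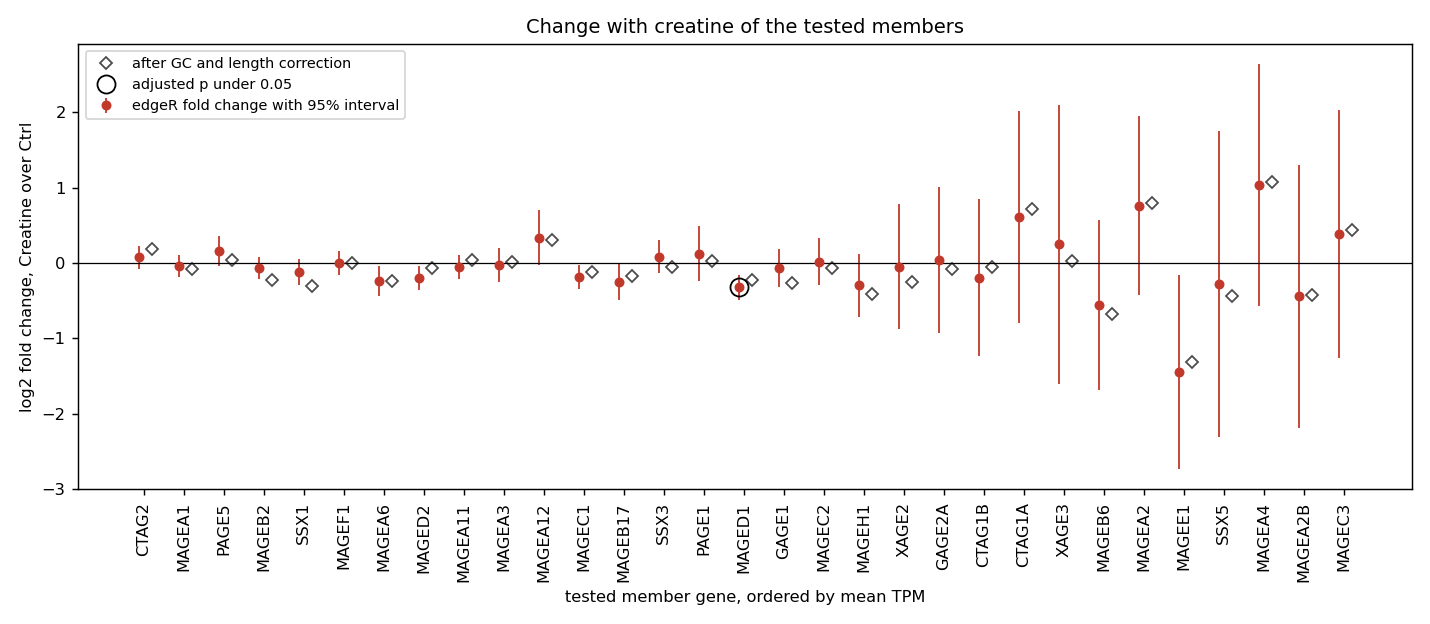
Log2 fold change with its 95% interval (red, edgeR) and after correction for GC content and length (diamonds) for the 31 tested members, ordered by mean TPM; the ring marks adjusted p under 0.05. Intervals of the abundant members on the left lie near 0, MAGED1 is the ringed gene, and intervals widen below 10 TPM.

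MAGEA12 (chromosome X, 152733779 to 152737669, plus strand) differed widely between libraries of the same group. It was at 68.4 and 109 TPM in the Creatine libraries and at 90.1 and 52.8 TPM in the Ctrl libraries, from 1218 to 2471 counts per library. The high libraries were Creatine 2 and Ctrl 1, and the low ones Creatine 1 and Ctrl 2. Libraries of a group differed by 1.62-fold with creatine and by 1.66-fold in Ctrl. Among 7515 genes of at least 20 CPM, 1 had both ratios at least as large, MAGEA12 itself, which was singled out after its values were seen. Its log2 fold change was 0.34 (95% interval -0.03 to 0.70, adjusted p = 0.190, edgeR), and it passed without Creatine replicate 1 (0.64, adjusted p = 1.7e-04) and without Ctrl replicate 1 (0.75, adjusted p = 2.4e-07) but had the opposite sign without Creatine replicate 2 (-0.06, adjusted p = 0.851). None of its 100-base stretches occurs in another gene, and the pseudogene CSAG4, which overlaps it on the same strand, was at 0.194 and 0.439 CPM with creatine and 0.234 and 0.428 CPM in Ctrl. The cause of this spread was not tested. The neighbour MAGEA3 differed by 1.07-fold between Creatine libraries and 1.37-fold between Ctrl libraries, and MAGEA6 by 1.09-fold and 1.26-fold.

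**Figure D5:**
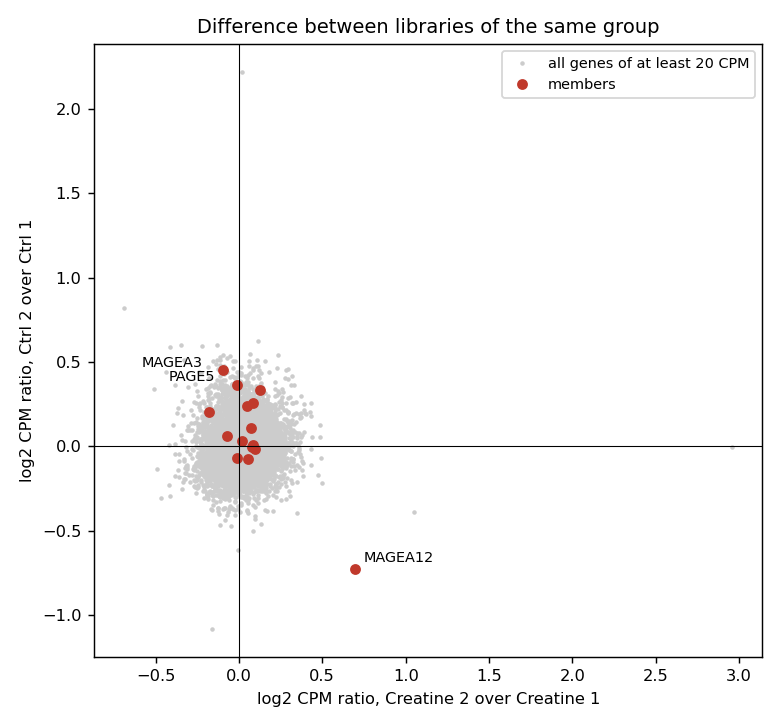
Log2 ratio of Ctrl 2 over Ctrl 1 (y axis) against Creatine 2 over Creatine 1 (x axis) for 7515 genes of at least 20 CPM (grey) and the 15 members among them (red). MAGEA12 lies apart from the other members, high in Creatine 2 and low in Ctrl 2.

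Cancer-testis genes outside these families were also expressed in part. Of 101 such genes in the table, 25 had a mean of at least 10 TPM, 5 of at least 100 TPM and 27 had 0 counts in all 4 libraries. The lowest of the 25, CSAG2 at 11.1 TPM, ranked 8678 of all 34545 symbols. The lowest of the 5, CT55 at 119 TPM, ranked 1646, so both shares were near those of symbols at large. At least 1 count was found for 74 of the 101 and for 21954 of all symbols. PASD1, a testis gene of the X chromosome, averaged 186 TPM and had a log2 fold change of -0.00 (adjusted p = 0.993, edgeR), and ACTL8, an actin-like gene, averaged 138 TPM (-0.16, adjusted p = 0.170). Of 48 tested, 7 passed, 6 higher and 1 lower, against 9.15% and 10.5% of all genes, and the median log2 fold change was 0.09. Among genes of at least 1 CPM in 2 libraries, 7 of 35 passed, against 26.4% of all such genes. Several of those that passed are known for work in cell division in many tissues. The spindle kinase gene TTK had 49.9 and 50.0 CPM with creatine and 41.7 and 38.4 CPM in Ctrl (0.32, SE 0.09, adjusted p = 0.0155), the kinetochore gene NUF2 changed by 0.34 and the kinase gene PBK by 0.32, and the microtubule depolymerase gene KIF2C by -0.28. SPANXN3, of a sperm protein family on X, had 3.65 and 3.11 CPM with creatine and 1.79 and 1.71 CPM in Ctrl (0.95, adjusted p = 0.0187), and SPAG9 changed by 0.22. After the correction for GC content and length 0 of the 48 passed (10 at an unadjusted p under 0.05, edgeR). Of all 15302 genes, 2.38% then passed and 2397 were at an unadjusted p under 0.05. Without Creatine replicate 1 the log2 fold changes were 0.43 for NUF2, -0.23 for KIF2C and 0.83 for SPANXN3. Without Creatine replicate 2 they were 0.24, -0.35 and 1.06. Counts with 1 library left out are given at the end.

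Partners of the MAGE and PRAME proteins changed in both directions. Of 27 tested, 9 passed, 4 higher and 5 lower, against 19.6% of all genes, 9.15% higher and 10.5% lower. The median log2 fold change was 0.09, against 0.01 for all genes. Among genes of at least 1 CPM in 2 libraries, 9 of 22 passed, against 26.4% of all such genes. TRIM28, the ligase bound by MAGEA3, MAGEA6 and MAGEC2, fell to 558 and 572 CPM with creatine, against 699 and 729 CPM in Ctrl (-0.34, SE 0.06, adjusted p = 9.4e-04, edgeR). The retinoic acid receptor gene RARA (-0.47) fell, and PJA2 (0.34), a ligase gene related to the MAGED1 partner PJA1, the AMPK subunit gene PRKAA1 (0.27) and ELOC (0.35), which links PRAME to CUL2, rose. ELOB, the partner of ELOC, was at 0.15 (adjusted p = 0.193) and CIAO1, of iron-sulfur cluster assembly, at -0.05 (adjusted p = 0.664). After the correction for GC content and length only ELOC of the 27 passed (0.41, adjusted p = 0.0075, edgeR), against 2.38% of all genes. TRIM28 was then at -0.07 (adjusted p = 0.611). Without Creatine replicate 1 ELOC was at 0.27 and PRKAA1 at 0.33, and without Creatine replicate 2 they were at 0.43 and 0.21. PRKAA1 was at 0.23 without Ctrl replicate 2. Counts with 1 library left out are given at the end.

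The list of germline silencing genes also moved in both directions. It was not of silencers alone, since it held TET1, TET2, TET3 and the transcription factor genes SP1 and ETS1. Of 31 tested, 10 passed, 4 higher (ETS1 among them) and 6 lower, against the same 19.6%, 9.15% and 10.5% of all genes. The median log2 fold change was -0.08. Among genes of at least 1 CPM in 2 libraries, 10 of 31 passed, against 26.4% of all such genes. DNMT1, which maintains DNA methylation, fell to 237 and 238 CPM with creatine, against 306 and 296 CPM in Ctrl (-0.34, SE 0.06, adjusted p = 0.0010, edgeR). UHRF1, which brings DNMT1 to replicated DNA, fell to 54.0 and 67.2 CPM, against 83.1 and 83.7 CPM in Ctrl (-0.46, adjusted p = 0.0014). The histone H3 methyltransferase genes EHMT2 (-0.45) and EHMT1 (-0.40) fell, while the chromatin remodeller gene ATRX (0.47) and CBX3 (0.30), of heterochromatin, rose. HDAC1 was at -0.08 (adjusted p = 0.452), ETS1, a transcription factor gene, rose by 0.22 (adjusted p = 0.0177), and CTCFL, the germline paralogue of CTCF, had 0 counts in all 4 libraries. After the correction for GC content and length 0 of the 31 passed (8 at an unadjusted p under 0.05, edgeR). Of all 15302 genes, 2.38% then passed and 2397 were at an unadjusted p under 0.05. DNMT1 was then at -0.14 (adjusted p = 0.223), UHRF1 at -0.29 (0.0693) and ATRX at 0.27 (0.0986). Without Creatine replicate 1 UHRF1 was at -0.31, EHMT1 at -0.26 and ETS1 at 0.18. Without Creatine replicate 2 they were at -0.63, -0.55 and 0.24. Counts with 1 library left out are given at the end.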

How the data were processed

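RNA sequencing libraries were deposited as 1 table of whole-number counts per gene symbol, not normalized, with a gene length, as made by the authors. Per the submitters' processing notes, FastQC 0.11.9, HISAT2 2.2.1, featureCounts and DESeq2 were used with GRCh38. For the annotation release, strand setting and treatment of reads with several matches, the entry is: not given in the sources used here. Library kits were TruSeq RNA, per the labels' protocols.

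Genes were kept by filterByExpr (15302) and tested with edgeR 4.0.16 in R 4.3.3 with TMM factors between 0.993 and 1.01 and the group as the only term, on all 4 libraries. Adjustment of p-values was by the Benjamini-Hochberg method across the genes tested (threshold 0.05). Residual degrees of freedom numbered 2, raised to a median of 22.9 by sharing spread between genes. For 2 libraries against 2, the smallest p of a two-sided exact permutation is 0.333. CPM used the TMM factors and TPM the deposited lengths. The 95% intervals of fold changes are edgeR's and include the spread between libraries, while floors cover counting error only, since reads carry no molecular identifiers. The floor of 3 counts came to 0.0583 and 0.0626 CPM in the Creatine libraries and 0.0501 and 0.0611 CPM in the Ctrl libraries.

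GENCODE 29 gave coordinates and longest transcripts for all 71 members. The correction for GC content and length fitted a smooth trend (mgcv 1.9.3) to each library's deviation from the mean log2 CPM and used it as an offset; 23 genes without a GC value took the median. Promoters came from RefSeq (GRCh38.p14). Alternatives were DESeq2 1.42.0, limma 3.58.1 with voom, robust edgeR, other scalings and filters, blocking on replicate number, and leaving out libraries singly.

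Members and lists were chosen with earlier results of these data known. All expressed members are named. From each list of other cancer-testis, partner and silencing genes, the 6 with the smallest adjusted p among those that passed and the 2 others with the highest TPM were named, and others were chosen after their values were seen. A partner gene that the rule names is not reported here. The log2 fold changes of these lists are from the same edgeR fit.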

Additional observations from a re-analysis of the deposited data

How the results depend on the processing

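The count of all genes changed, 3001, became 364 after the correction for GC content and length, 499 after GC content alone and 590 with the replicate block and that correction, and 1162 to 3116 with 1 library left out. The count of members changed, 1, became 3 with no filter on low counts (3065 of all 21954 genes), 4 with the replicate block (3795 of all 15302 genes) and 2 with the replicate block and the correction for GC content and length, and 1 to 4 with 1 library left out. With no filter MAGEA12 and MAGEA6 were added to MAGED1, with the block also MAGED2, and with block and correction the 2 were SSX1 and MAGEB2. Without Ctrl replicate 1 the members were MAGED1, MAGEA12 and MAGEA6 (3 in all, beside 2804 of all 16079 genes), without Ctrl replicate 2 they were MAGED1, CTAG2, MAGEC1 and PAGE5 (4 in all, beside 3116 of all 16064 genes), and without Creatine replicate 1 MAGEA12 alone (beside 1162 of all 15991 genes). DESeq2, limma-voom, robust edgeR, 3 other scalings and the stricter filter each gave 1 lower member. Other cancer-testis genes gave 0, 0 and 1 calls after the correction for GC content and length, for GC content alone, and with block and correction, against 7, and 1 to 6 with 1 library left out. Partner genes gave 1, 3 and 3 in the same order, against 9, and 4 to 8 with 1 library left out. Silencing genes gave 0, 1 and 2, against 10, and 4 to 12 with 1 library left out. Expressed members numbered 27 at a minimum of 10 counts in each library and 35 at 1, against 32.

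Same-numbered libraries did not deviate together (correlation -0.0228 across 15302 genes), so the replicate block rests on a number alone.

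Signs that turned were all of values that did not pass, before or after. With the correction for GC content and length they were GAGE2A (-0.0755), MAGEA11 (0.0392), MAGEA3 (0.00578), MAGEC2 (-0.0629) and SSX3 (-0.0515), and with GC content alone CTAG1B (0.0625), MAGEA1 (0.00183), MAGEA11 (0.0254), MAGEA3 (0.0505) and MAGEF1 (0.0866). With block and correction they were GAGE2A (-0.103), MAGEA11 (0.0392), MAGEA3 (0.0155), MAGEC2 (-0.0672), SSX3 (-0.0502) and XAGE3 (-0.055), and with upper-quartile scaling MAGEF1 (0.0138). With 1 library left out, the genes whose sign turned ranged from -0.595 to 0.32 for CTAG1B, -0.0515 to 0.193 for CTAG2, -0.169 to 0.0338 for GAGE1, -0.244 to 0.268 for GAGE2A, -0.0935 to 0.00329 for MAGEA1, -0.0569 to 0.748 for MAGEA12, -1.02 to 0.551 for MAGEA2B, -0.241 to 0.197 for MAGEA3, -0.116 to 0.134 for MAGEC2, -0.048 to 0.0331 for MAGEF1, -0.0482 to 0.297 for PAGE1, -0.015 to 0.336 for PAGE5, -0.0337 to 0.192 for SSX3, -2.31 to 0.514 for SSX5, -0.19 to 0.0756 for XAGE2 and -0.842 to 0.841 for XAGE3.

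The causes of these changes were not tested. Counts limit the members below 10 TPM, with standard errors of 0.40 to 0.98 on the log2 scale.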

Other observations

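MAGEE2, a member with too few counts to be tested, had 6 counts in each Creatine library, and 4 and 40 counts in the Ctrl libraries. Melanocytic DCT, which is no member, was at 51.9 and 47.9 TPM in the Creatine libraries and 41.7 and 40.8 TPM in the Ctrl libraries. Of all genes tested, 29.2% had both Creatine libraries above both Ctrl libraries in CPM. The groups overlapped for MITF (17.4 and 14.9 TPM with creatine, 16.9 and 15.3 TPM in Ctrl). They also did for PMEL (12.4 and 12.6 TPM with creatine, 13.3 and 11.3 TPM in Ctrl). MLANA, TYR and SOX10 had at most 18 counts in a library.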
